A study of Mus musculus with 28 samples.

Results

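The nuclear genes for the structural subunits of oxidative phosphorylation were followed through 5 adipose depot data sets from control and Fgf13 knockout mice. Members were chosen by symbol: the Ndufa, Ndufb, Ndufc, Ndufs and Ndufv genes, Sdha to Sdhd, Cyc1, the Uqcr genes, the Cox4i to Cox8 genes except Cox7a1 and Cox8b, and the Atp5 genes, without pseudogenes and assembly factors. A member also needed a value of at least 1 in at least 1 library, which left 87 of 89 named genes, out of 55891 gene IDs in all. Complex I (NADH dehydrogenase) had 37 members, complex II (succinate dehydrogenase) 4, complex III (cytochrome bc1) 9, complex IV (cytochrome c oxidase) 19 and complex V (ATP synthase) 18. Atp5o is 1 symbol with 2 gene IDs, and both were counted. Ndufa4 and Ndufa4l2 were placed in complex IV.

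Complexes I to IV pass electrons from NADH and succinate to oxygen and, except for complex II, pump protons out of the mitochondrial matrix, and complex V lets the protons back to make ATP. Most subunits are encoded in the nucleus, and a small core is encoded in mitochondrial DNA. Brown fat is rich in mitochondria and burns fuel as heat because Ucp1 lets protons return without ATP synthesis, while white fat stores lipid in cells with fewer mitochondria.

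The series holds 28 bulk RNA-seq libraries of mouse fat from control animals and animals with adipose Fgf13 knockout. Fgf13 encodes a fibroblast growth factor homologous factor, an intracellular protein. The inducible knockout covers an epididymal set (ieWAT, 3 control and 3 knockout libraries) and a subcutaneous one (isWAT, 3 and 2), the constitutive knockout a subcutaneous set (sWAT, 3 and 3) and a brown fat set (BAT, 3 and 2), all from mice obese after 20 weeks of high fat diet. A second epididymal set (eWAT, 3 and 3) has no stated knockout type or diet. Strain, sex, age, the promoter that drives the deletion and the agent that induces it are not in the labels used here. Separate animals are not stated either, so p-values measure only the spread between these samples. Values are CPM (counts scaled to a common library total, not divided by gene length) in the 4 obese sets and FPKM (scaled to the library and divided by gene length) in eWAT. The CPM sets had between 13490948 and 48812592 recovered reads a library, and depth is unknown in eWAT.

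Fgf13 itself was lower in every knockout library than in any control library of its depot in ieWAT (22.6 to 33.4 against 39.7 to 51.4 CPM), isWAT (31.3 to 35.3 against 53.0 to 69.2), sWAT (43.0 to 84.0 against 106 to 113) and BAT (0.246 to 1.87 against 3.01 to 17.6). In eWAT the groups overlapped, at 17.6 to 27.0 FPKM in the libraries labelled knockout and 12.9 to 27.6 in controls. The direction of every eWAT difference therefore rests on labels that Fgf13 does not bear out. Depots were deposited as separate tables, so each was tested alone, with limma on log2(value + 1), and fold changes understate those of low genes. "Passed" below means a Benjamini-Hochberg adjusted p under 0.05 over all genes of the depot.

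Promoter stretches are shown for 4 members named in the results. They are Atp5g1 and Atp5g3, paralogous genes for the same c-subunit of ATP synthase, Uqcr11, which passed in eWAT, and Atp5l. Atp5l had the smallest p of members in both isWAT and sWAT but passed in no depot. The stretches come from RefSeq (build GRCm38.p6), which matched 65 of 87 members. All 4 genes lie on the minus strand, and the stretches are written 5′ to 3′ along the gene: chr11:96075672-96075791 for Atp5g1, chr2:73911327-73911446 for Atp5g3, chr10:80406832-80406951 for Uqcr11 and chr9:44920743-44920862 for Atp5l. The Atp5g3 and Atp5l stretches end at base -1 before the start, that of Uqcr11 at base -11 and that of Atp5g1 at base -41, which leaves out bases that an annotated transcript covers. Capitals mark the ERR alpha motif CAAGGTCA (here on the other strand) or the GABPA/ETS motif CCGGAAGT.
Atp5g1: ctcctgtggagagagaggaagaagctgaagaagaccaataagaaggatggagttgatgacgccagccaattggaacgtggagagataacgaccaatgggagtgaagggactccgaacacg
Atp5g3: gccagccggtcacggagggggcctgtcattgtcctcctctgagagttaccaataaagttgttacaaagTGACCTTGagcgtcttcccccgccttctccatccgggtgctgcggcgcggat
Uqcr11: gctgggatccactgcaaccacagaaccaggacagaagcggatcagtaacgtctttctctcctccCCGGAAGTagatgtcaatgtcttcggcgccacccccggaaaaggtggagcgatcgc
Atp5l: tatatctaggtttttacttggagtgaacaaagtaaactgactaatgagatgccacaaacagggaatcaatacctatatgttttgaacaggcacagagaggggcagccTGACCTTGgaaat

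Windows of 300 bases (250 before to 50 after the start) were searched on both strands, and a gene counted if any of its promoters matched. CAAGGTCA was found in 4 of 65 members (6.15%) and in 1.76% of 27025 genes with a promoter. These members were Atp5g3, Atp5l, Ndufs5 and Sdhd. The palindromic NRF1 motif was found in 5 members (7.69%, against 1.07%), among them Atp5g2 and Cox6a1. CCGGAAGT was found in 5 (7.69%, against 4.31%), among them Uqcr11 and Cox8a, AAGATGGC (YY1) in 9 (13.8%, against 3.19%) and GGGCGG (SP1) in 27 (41.5%, against 38.2%). Not every named member that passed in eWAT had a match: Ndufb3, Ndufv1 and Ndufa7 had none of these motifs. A match is a description of the letters, not a binding site, and the series holds no binding data.

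The members' summed values took between 0.929 and 1.26% of a library (ieWAT), 1.205 and 1.501% (isWAT), 1.24 and 1.36% (sWAT) and 3.78 and 4.72% (BAT), with 2.04 to 2.58% of summed FPKM in eWAT. In eWAT the 3 libraries labelled knockout held 2.32, 2.50 and 2.58%, all above the controls at 2.04 to 2.07%. In BAT both knockout libraries, at 4.47 and 4.72%, were above the controls at 3.78 to 4.20%. In the other 3 sets the groups overlapped. The tables were normalised separately, and summed FPKM is not a share of reads.

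**Figure D1:**
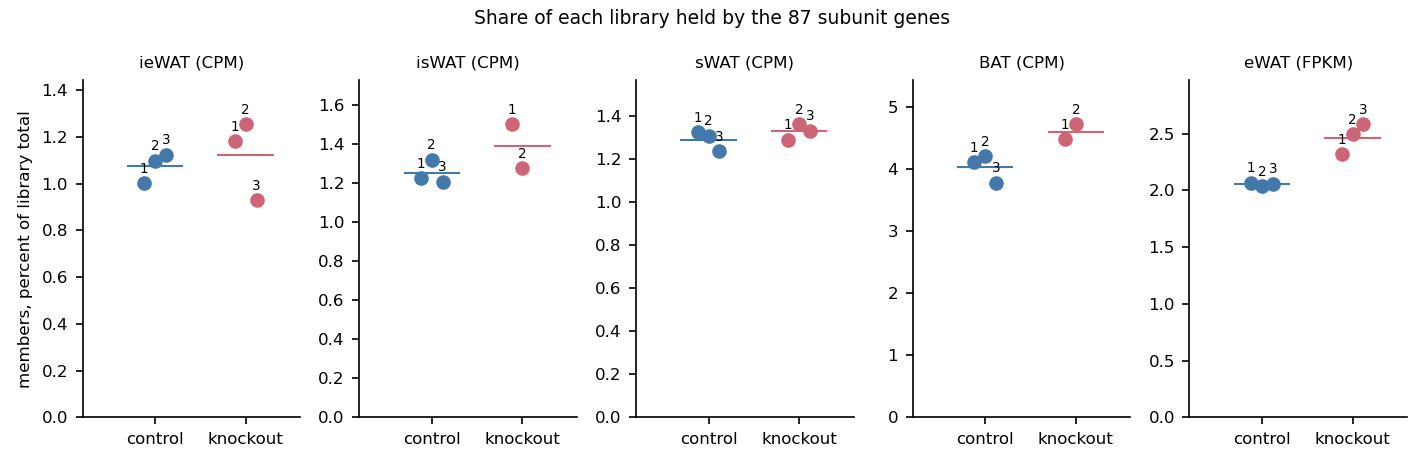
Percent of each library's summed values held by the 87 members, by depot (own vertical scale each, from 0), for control (blue) and knockout (red) libraries with their replicate numbers; lines are group means. Groups are apart in BAT and eWAT, and in ieWAT knockout 3 at 0.929% lies below every control while knockouts 1 and 2 lie above.

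Brown fat controls held more of most members than subcutaneous white controls. Of 81 members that could be compared between the constitutive sets, 76 were higher in every BAT control than in any sWAT control. The median ratio of means was 2.91 (range 0.36 to 6.04). The share of all genes higher in BAT in the same way was not computed, so the count of 76 has no background beside it. The median ratio was 3.09 in complex I, 3.70 in complex II, 4.02 in complex III, 2.71 in complex IV and 2.41 in complex V. This is a description, since the tables were scaled separately and mitochondrial transcripts held 27.3 to 35.1% of BAT control reads against 5.40 to 5.56% in sWAT controls.

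The highest ratio belonged to Sdhb, the iron-sulfur subunit of succinate dehydrogenase, at 744 to 914 CPM in BAT controls and 132 to 150 in sWAT controls. Ndufv1, the flavin and NADH binding subunit of complex I, followed at a ratio of 5.39. Of the ATP synthase catalytic core, Atp5b (beta) stood at a ratio of 3.81 and Atp5a1 (alpha) at 3.00.

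The other 5 members went the other way in CPM, and 3 of them belong to ATP synthase. Atp5g1, a c-subunit gene, was at 14.3 to 25.4 CPM in BAT controls and 57.1 to 60.6 in sWAT controls, a ratio of 0.36. Its paralogue Atp5g3 was at 175 to 217 against 380 to 428 (ratio 0.48), while the third, Atp5g2, was at 134 to 141 against 96.2 to 107 (ratio 1.34). Other genes hold 38.4% of the 50-base sequence words of Atp5g2 and 10.2% of those of Atp5g1, so both values are uncertain. Atp5g2 was at only 11.3 to 15.3 CPM in isWAT controls. Low ATP synthase content in brown fat has long been linked to scarce c-subunit mRNA, as background. Ndufa4l2, an alternative form of Ndufa4, had a ratio of 0.48, and Cox4i2, the alternative form of Cox4i1, 0.61. Both alternatives are known as hypoxia-responsive. Atp5j, coupling factor 6 of ATP synthase, had a ratio of 0.88. Mitochondrial transcripts take a larger share of BAT reads, which lowers the CPM of nuclear genes there. The order of a gene with a ratio this near 1 may depend on that scaling, which was not tested.

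**Figure D2:**
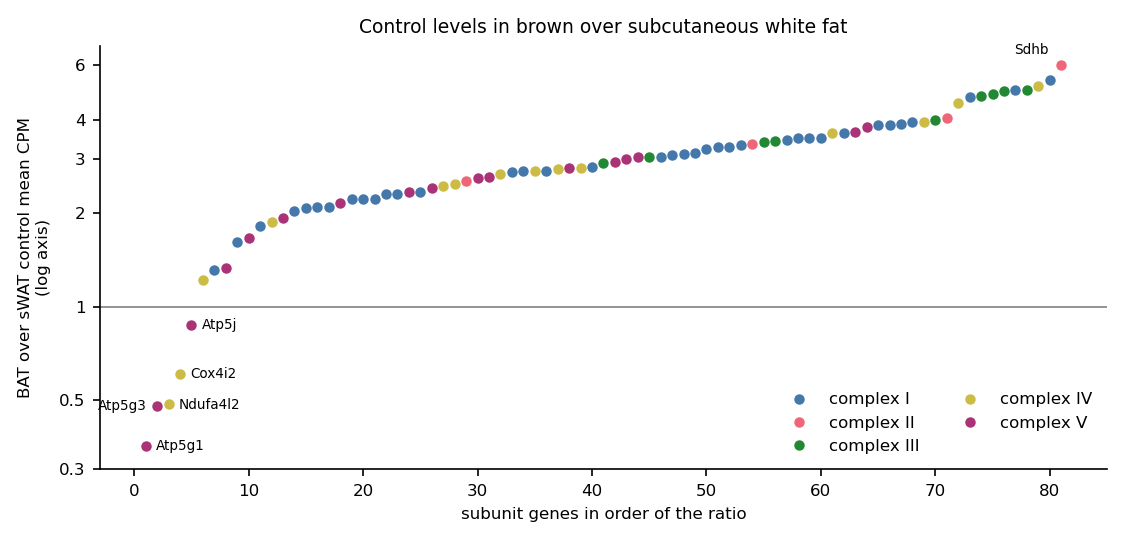
Ratio of BAT to sWAT control means (CPM, log axis) for 81 members in order of the ratio, coloured by complex. Atp5g1, Atp5g3, Ndufa4l2, Cox4i2 and Atp5j lie below 1, and Sdhb is highest at 6.04.

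In eWAT, 19 members rose in the libraries labelled knockout. Of 85 tested, 81 had a log2 change above 0 and the median was 0.28, where 46.4% of all genes were above 0 and the median of all genes was -0.02. By limma with Benjamini-Hochberg adjustment, these 19 (22.4%) passed as higher and 0 as lower, against 10.2% and 4.70% of all 13736 genes tested. At an unadjusted p under 0.05, 46 were higher (background 18.9%) and 0 lower (15.0%). Groups did not overlap in 51, all higher, where 21.6% of all genes were apart upward and 19.6% downward. A second deposited table of the same 6 samples, in TPM, gave other values: 49 of 83 members were above 0 there, 0 passed (smallest limma adjusted p = 0.917), and the members' median of 0.61 lay below that of all genes, 0.65. Under TMM scaling of the FPKM 16 passed, and the share of higher among all genes passing rose from 68.3 to 80.0%.

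Complex I held 11 of the 19. Ndufb3, an accessory subunit of the membrane arm, measured 83.0, 90.2 and 91.5 FPKM in controls and 141, 155 and 191 in the libraries labelled knockout. The groups did not overlap, and the log2 change was 0.86 (SE 0.13, limma adjusted p = 0.0128). Ndufab1, the mitochondrial acyl carrier protein, measured 137, 137 and 113 against 193, 193 and 232. All 3 labelled knockout libraries were higher, with a log2 change of 0.67 (SE 0.12, limma adjusted p = 0.0194).

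Ndufv3, a small accessory subunit, went from 142, 136 and 152 FPKM to 200, 209 and 209, a log2 change of 0.52 (SE 0.08, limma adjusted p = 0.0148). Ndufv1 went from 67.3, 62.3 and 63.7 to 79.1, 87.5 and 87.9, without overlap (log2 change 0.39, limma adjusted p = 0.0272). Ndufs4, an accessory subunit needed for full complex I activity, went from 87.99, 86.97 and 84.1 to 110, 124 and 137 (log2 change 0.51, limma adjusted p = 0.0235). The other complex I genes that passed and fell under the naming rule were Ndufb6 (log2 change 0.44), Ndufb4c (0.46) and Ndufa7 (0.37). Ndufb4c shares 100% of its 50-base words with other genes, Ndufb4 above all, so its reads could be split between them and its value is uncertain. Ndufb9 and Ndufs5 also passed, and are named after their values were seen.

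Complex II had the lowest median change of the 5 complexes. Sdha, the flavoprotein, measured 109, 104 and 94.3 FPKM against 113, 132 and 132, and Sdhb 100.01, 105 and 112 against 106, 114 and 120. None of the 4 passed by limma with Benjamini-Hochberg adjustment (adjusted p from 0.101 to 0.481), although Sdha, Sdhc and Sdhd were without overlap. The median log2 change was 0.16, against 0.30 in complex I, 0.34 in complex III, 0.26 in complex IV and 0.28 in complex V. Whether the complexes differ in response was not tested.

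In complex III, 3 of 9 passed (33.3%, against 10.2% of all genes). Uqcr11, a small subunit whose promoter is printed above, measured 286, 286 and 330 FPKM against 385, 431 and 449. All 3 labelled knockout libraries were higher, with a log2 change of 0.49 (SE 0.11, limma adjusted p = 0.0315). Cyc1, the cytochrome c1 that hands electrons on, and Uqcrq also passed and are named after their values were seen. Cycs, the soluble cytochrome c that takes those electrons and is no member, went from 17.0 to 17.6 up to 22.2 to 27.4 FPKM (log2 change 0.53, limma adjusted p = 0.0192).

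In complex IV, 3 of 17 tested passed (17.6%). Cox8a, the ubiquitous form of subunit 8, measured 488, 455 and 466 FPKM against 628, 644 and 669 (log2 change 0.46, SE 0.09, limma adjusted p = 0.0216). Cox4i2 was 3.75, 4.37 and 2.93 against 5.52, 8.80 and 6.62 (log2 change 0.76, SE 0.18, limma adjusted p = 0.0396), and Ndufa4l2 16.6, 19.2 and 16.2 against 21.7, 26.9 and 23.6 (0.45, SE 0.11, adjusted p = 0.0383). Cox4i2 is scarce beside its partner: it made 0.55 to 0.92% of the Cox4i1 and Cox4i2 FPKM in controls and 1.06 to 1.35% in the libraries labelled knockout. Cox7a2l, which joins complexes III and IV into supercomplexes, was at 171 to 182 against 173 to 179 FPKM, with overlapping groups and a log2 change of -0.01, which TMM scaling turned to 0.04.

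In complex V, 2 of 18 passed, a share of 11.1% beside 10.2% of all genes. Atp5b, the catalytic beta subunit, measured 552, 546 and 512 FPKM against 672, 749 and 795 (log2 change 0.46, SE 0.10, limma adjusted p = 0.0328). Atp5g3 measured 376, 359 and 346 against 449, 565 and 546 (0.52, SE 0.12, limma adjusted p = 0.0317). Its paralogue Atp5g1 measured 138, 136 and 161 against 140, 123 and 144, overlapping, with a log2 change of -0.09 (limma adjusted p = 0.582). Since the 3 genes encode the same mature protein, their shares can be set side by side: Atp5g1 made 26.0 to 30.7% of their summed FPKM in controls and 17.5 to 22.8% in the libraries labelled knockout, and Atp5g3 65.8 to 71.1% and 73.2 to 80.1%. Both shares were without overlap, and no test of the shares was made. They are uncertain, since other genes hold 10.2% of the 50-base words of Atp5g1 and 38.4% of those of Atp5g2.

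**Figure D3:**
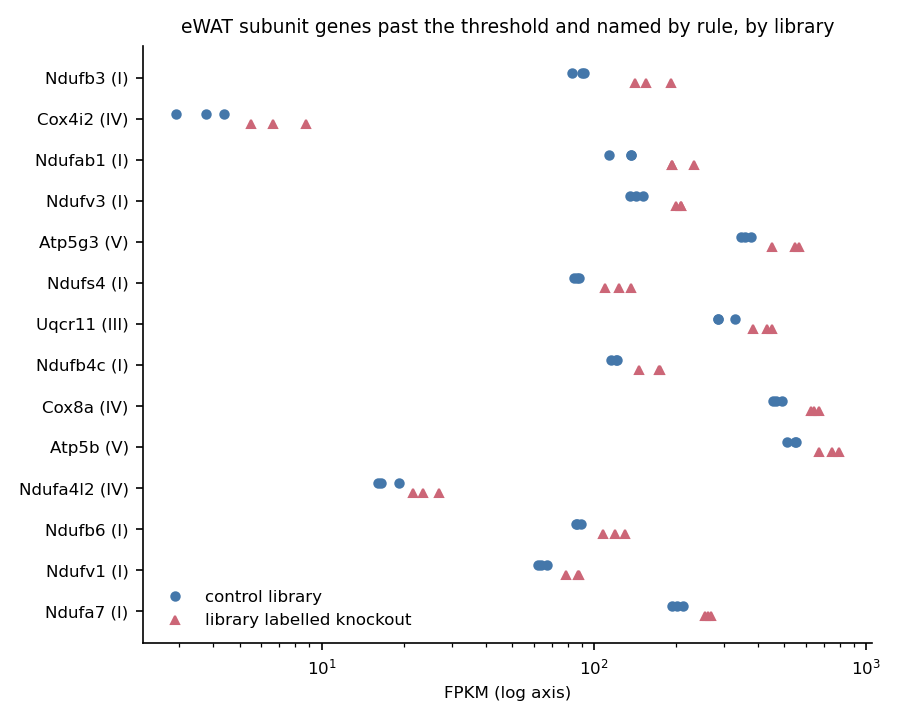
FPKM (log axis) in each eWAT library for the 14 of 19 members passing by limma that the naming rule covers, in order of log2 change, with the complex in brackets; circles are controls and triangles libraries labelled knockout. In none of the 14 do the groups overlap, and Ndufb3 has the highest change at 0.86.

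Per length, control eWAT levels ran over a wide range within a complex. Atp5b was highest of complex V at a median of 546 FPKM, Cox4i1 of complex IV at 473, Uqcrh of complex III at 305, Ndufa7 of complex I at 202 and Sdhb of complex II at 105. The lowest were Ndufb4 at 19.5 FPKM in complex I, Sdhc at 86.1 in complex II, Uqcrfs1 at 75.8 in complex III, Cox7b2 listed at 0 in complex IV and the second Atp5o ID at 3.03 in complex V. The second ID shares most of its sequence words with another gene, as Ndufb4 does in part, so these low values are uncertain. The 4 complex II genes lay closest together, from 86.1 to 105 FPKM.

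The eWAT calls rest on few libraries. All 19 kept a positive change when each library was left out in turn, but the number passing was 6, 1 and 7 without control 1, 2 and 3, and 16, 4 and 0 without labelled knockout 1, 2 and 3. Array weights gave 51, and no filter on low genes gave 2. The calls over all genes moved as well. In the main fit 1395 passed as higher and 646 as lower. These counts were 2203 and 1655 with array weights, 457 and 87 without a filter, and 7 and 5 without labelled knockout 3. Of the 19, 11 were above 0 and 8 below in the TPM table, among them Uqcr11 at -0.56, Ndufs4 at -1.30 and Ndufa7 at -1.86.

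Other gene groups moved in the same eWAT libraries. Of 15 adipocyte genes 13 passed as higher (median log2 change 1.22), and their summed level was 13300 to 15488 FPKM in controls and 24684 to 29769 in the libraries labelled knockout. Cidec, a lipid droplet protein, had a log2 change of 1.22 (limma adjusted p = 0.0122). Of 15 macrophage genes 7 passed as lower (median -0.66), with summed levels of 8598 to 12405 against 5400 to 6306 FPKM and no marker at 0, and of 16 endothelial genes 10 passed as higher, at 409 to 476 against 600.4 to 828. Of 7 skeletal muscle genes tested 3 passed as higher and 5 were above 0. That list summed to 28.6 to 36.8 FPKM in controls and 52.8 to 60.0 in the libraries labelled knockout. In bulk tissue, fewer cells of a type and less RNA per cell cannot be told apart. The part of cell makeup in the members' difference was not tested.

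Among mitochondrial lists, 8 of 13 citric acid cycle genes passed as higher (median 0.39), as did 8 of 19 electron carriers and uncouplers (0.31) and, at a share near the 10.2% of all genes, 6 of 49 assembly factors (0.16, 47 above 0), such as Atpaf2, an ATP synthase assembly factor (0.82, limma adjusted p = 0.0122). Of 13 mitochondrially encoded genes, 1 passed, mt-Nd4, and 13 were above 0 (median 0.65). By limma 0 of 16 biogenesis regulators passed (median -0.01), with 1 at an unadjusted p under 0.05, and 0 of 35 cytosolic ribosomal protein genes (median -0.16), with 0 at that level, although 17 of the 35 were apart downward (background 19.6%). Ppargc1a, a coactivator of mitochondrial biogenesis, was under 1 FPKM in all 6 libraries and was not tested.

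In BAT no member passed, but members stood above the median gene. Of 83 tested, 78 had a log2 change above 0 and the median was 0.18, where 23.6% of all genes were above 0 and their median was -0.18. The groups were apart upward in 46 members (background 6.37%) and downward in 1, Ndufa4l2 (background 38.1%). By limma with Benjamini-Hochberg adjustment 0 members passed in either direction (smallest adjusted p = 0.237), where 0.00755% of all genes passed as higher and 0.00% as lower. At an unadjusted p under 0.05, 8 were higher (background 2.32%) and 0 lower (16.8%). edgeR on recovered reads also gave 0. DESeq2 gave 18, all higher, beside 261 genes higher and 530 lower over all genes. TMM, edgeR and DESeq2 scaling moved the median of all genes to 0.00 and that of members to 0.38, 0.38 and 0.37, so members stood 0.36 to 0.38 above the median gene under each scaling.

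The 8 members with the smallest p came from 4 complexes. Uqcr10, a small complex III subunit, measured 314, 307 and 289 CPM in controls and 363 and 416 in knockouts (log2 change 0.36, SE 0.11, limma adjusted p = 0.237). Ndufb9 measured 366, 380 and 357 against 440.5 and 462, and Ndufa4, a complex IV subunit, 552, 608 and 540 against 665 and 793. In each of the 3, both knockout libraries were above every control.

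The other 5 had the same order. Cox5a measured 437, 496 and 444 CPM against 535 and 615, and Cox6b1, which joins complex IV monomers, 676, 652 and 608 against 750.4 and 847. Ndufs6, Atp5l and Cox7c had log2 changes of 0.31, 0.31 and 0.26, without overlap. Cox7c shares 22.1% of its words with other genes. Of complex II, Sdha measured 1696, 2057 and 1701 against 2193 and 2115, and all 4 members were apart upward, with limma adjusted p from 0.274 to 0.478.

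Ndufa4l2 was lower in both BAT knockouts, at 11.9 and 10.4 CPM against 14.8, 12.7 and 16.6 (log2 change -0.36, limma adjusted p = 0.266; -0.17 under TMM). Atp5g1 spanned the widest range of the c-subunit genes, at 23.3, 14.3 and 25.4 CPM in controls and 6.34 and 40.5 in knockouts. Its log2 change of -0.29 turned to 0.37 by DESeq2 and 0.36 by edgeR. Atp5g3 was at 175 to 217 against 170 and 227, and Atp5g2 at 134 to 141 against 142 and 137, both overlapping.

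In the same BAT libraries all 14 tested macrophage genes were apart downward, with summed levels of 386 to 1571 CPM in controls and 171 to 180 in knockouts and no marker at 0. So were 10 of 15 fibroblast genes, 12 of 16 endothelial genes and 17 of 35 ribosomal protein genes (median -0.35), where 38.1% of all genes were, and 0 of these lists' genes passed by limma (12, 4, 7 and 12 were lower at an unadjusted p under 0.05). Of 13 citric acid cycle genes 8 were apart upward (background 6.37%, median 0.16). Among 20 biogenesis regulators 1 was apart upward and 5 downward (background 38.1%), with a median of -0.095. Ucp1, the uncoupling protein of brown fat, was at 5048 to 7238 CPM against 4950.4 and 6593.5, overlapping. The skeletal muscle list summed to 60.5 to 1906 CPM in controls, 53.2 in knockout 1 and 9098 in knockout 2. The part of these in the members' difference was not tested, and without knockout 2 the median of members was 0.13 with 67 above 0, against 0.24 and 79 without knockout 1.

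**Figure D4:**
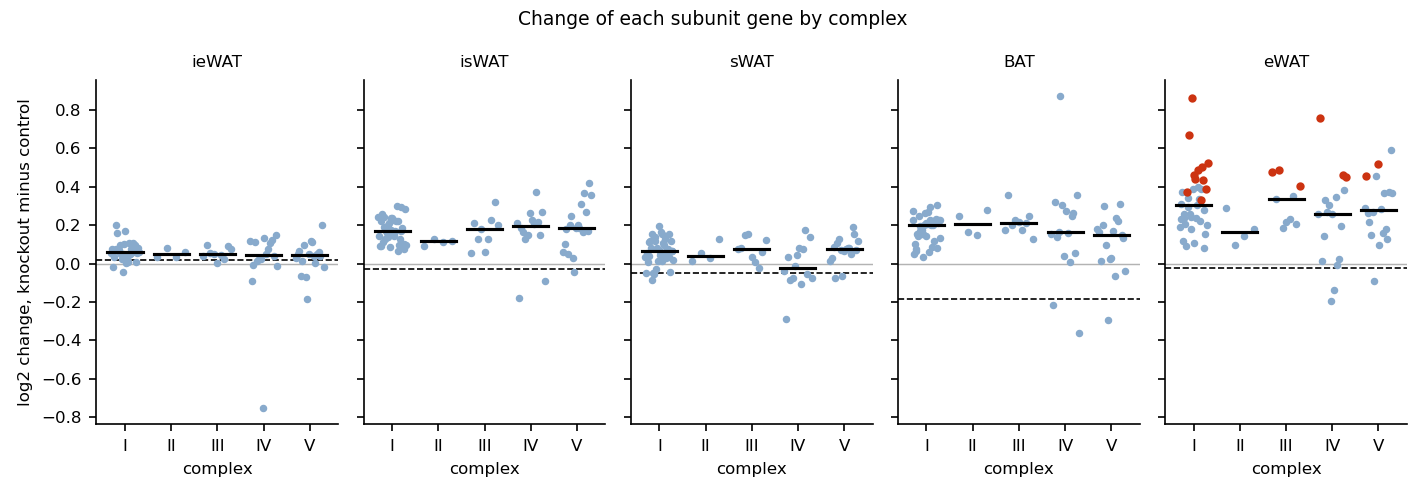
Log2 change (knockout minus control, on log2(value + 1)) of each tested member by complex and depot; bars are complex medians, the dashed line is the median of all genes tested and red points passed by limma. Medians lie above the dashed line in each complex and depot, most in BAT and eWAT, and red points occur in eWAT only.

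In isWAT, 79 of 82 members had a log2 change above 0 and the median was 0.17, where 43.9% of all genes were above 0 and their median was -0.03. By limma with Benjamini-Hochberg adjustment 0 passed (smallest adjusted p = 0.304), where 0.00701% of all genes passed as higher and 0.00% as lower. At an unadjusted p under 0.05, 14 were higher (background 3.98%) and 0 lower (9.13%). edgeR gave 0 passing and DESeq2 2, both higher, beside 93 genes higher and 166 lower over all genes by DESeq2. Groups were apart upward in 23 (background 12.2%) and downward in 0 (19.4%).

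Atp5l, subunit g of ATP synthase, measured 99.6, 121 and 114 CPM in controls and 150.2 and 137 in knockouts (log2 change 0.37, SE 0.10, limma adjusted p = 0.304). Cox7b measured 66.8, 79.8 and 71.9 against 104 and 85.6, and Atp5f1, the peripheral stalk b subunit, 167, 174 and 177 against 213 and 197. Both knockout libraries were above every control in the 3 genes, and knockout 1 was the higher in each.

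The same held for 5 complex I genes: Ndufb5, Ndufc1, Ndufv2, Ndufs4 and Ndufa6, with log2 changes of 0.23, 0.30, 0.28, 0.29 and 0.24. Ndufv2, an iron-sulfur subunit, measured 63.5, 71.9 and 66.9 CPM against 90.6 and 74.5, so that knockout 2 lay close to the highest control. The isWAT difference depends on knockout 1: members' median was 0.03 without it and 0.31 without knockout 2. Of 35 ribosomal protein genes 20 were apart upward (background 12.2%), with a median of 0.15, and the mitochondrially encoded genes had a median of 0.26. Biogenesis regulators leaned the other way: among 18 tested 7 were apart downward (background 19.4%) and 0 upward, with a median of -0.08. Of 16 endothelial genes 9 were apart downward (background 19.4%; median -0.22, summed level 3858 to 4414 CPM in controls and 3470 to 3628 in knockouts), as were 7 of 15 T and NK cell genes (median -0.32, 50.6 to 53.6 against 36.8 to 48.5), with no marker at 0. The part of these in the members' difference was not tested.

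In sWAT, 64 of 81 members were above 0 and the median was 0.06, where 37.2% of all genes were above 0 and their median was -0.05. By limma with Benjamini-Hochberg adjustment 0 passed (smallest adjusted p = 0.514), against 0.0217% of genes as higher and 0.00% as lower, and edgeR and DESeq2 also gave 0. At an unadjusted p under 0.05, 0 members were higher (background 1.93%) and 0 lower (7.72%). Groups were apart upward in 12 (background 3.80%) and downward in 1, Cox4i2 (background 12.3%). Complex IV had a median of -0.02, and complexes I, II, III and V 0.06, 0.04, 0.08 and 0.08.

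Atp5l measured 177, 154 and 166 CPM in controls and 177, 203 and 188.5 in knockouts, a log2 change of 0.19 with the groups only just apart. Cox7c measured 117, 109 and 112 against 117, 136 and 130, and Ndufb8 167, 155 and 159 against 170, 182 and 183. In all 3, knockout 1 lay beside the highest control. Cox4i2 fell outside this order, at 9.89, 10.01 and 9.42 against 9.41, 8.51 and 5.91 (log2 change -0.29, limma adjusted p = 0.578). Sdhd, the membrane anchor of complex II, was the only one of its 4 without overlap, at 149 to 159 against 162 to 174.

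Knockouts 2 and 3 of sWAT also held skeletal muscle transcripts: the muscle list summed to 2901 and 3835 CPM there, against 62.9 in knockout 1 and 60.0 to 75.7 in controls. The mitochondrially encoded genes had a median change of 0.38, with 8 of 13 at an unadjusted p under 0.05. Without those 2 libraries the members' median was 0.02, with 1 knockout library left, assumed to vary like the controls. All 16 endothelial genes were below 0 and 9 were apart downward (background 12.3%; median -0.29), with summed levels of 2529 to 2555 CPM in controls and 1893 to 2403 in knockouts. The macrophage list had a median of -0.52, at 2157 to 2895 against 1240 to 2603 CPM, and no marker of either list was at 0. The part of these lists in the members' values was not tested.

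In ieWAT, 74 of 84 members were above 0, where 55.8% of all genes were, and the median was 0.05 against 0.02 for all genes. By limma with Benjamini-Hochberg adjustment 0 passed (smallest adjusted p = 1.000), with 0.00% of all genes passing, and edgeR and DESeq2 gave 0 members. At an unadjusted p under 0.05, 0 were higher (background 2.00%) and 0 lower (0.617%), and 0 were apart in either direction (3.43% and 1.68%). The knockout libraries were split: for Ndufa5, a matrix arm subunit, controls measured 23.0, 25.3 and 26.2 CPM and knockouts 31.1, 33.7 and 22.4. Ndufa4 measured 132, 122 and 127 against 142, 162 and 121, and Cox6c 116, 122 and 120 against 141, 147 and 107.

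In each of these, knockouts 1 and 2 were above and knockout 3 below all controls. Ndufa6, Ndufb4c, Cox7b and Atp5h were also among the 8 smallest p, with log2 changes of 0.16, 0.17, 0.11 and 0.12. Atp5g2 was the one of the 8 below 0, at 14.6, 16.4 and 14.5 against 14.8, 14.5 and 10.7 CPM (-0.19). The members' median was 0.18 without knockout 3, -0.02 without knockout 2, 0.02 without knockout 1 and 0.00 without control 1. In the same knockout libraries, 11 of 15 T and NK cell genes were apart upward (background 3.43%; median 0.84, summed level 46.2 to 91.0 CPM in controls and 104 to 133 in knockouts). Of 15 B cell and lymph node genes 3 were apart upward (median 1.36, 1381 to 3319 against 4617 to 8168), 0 of either list passed by limma, with 12 and 7 at an unadjusted p under 0.05, and no marker was at 0. Their part in the members' values was not tested.

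Across all 5 depots, 58 of the 81 members tested in each had a log2 change above 0 in all 5 and 0 had one below 0 in all 5, where 4.24% of 12149 genes were above and 13.0% below in each. Groups were apart upward in at least 3 depots for 14 members. Of these, 13 were also above 0 in all 5: Ndufa4, Ndufa7, Ndufab1, Ndufb4, Ndufb6, Ndufb8, Ndufc2, Ndufs4, Ndufv2, Sdhd, Atp5a1, Atp5f1 and Atp5l (background 0.733%). Ndufa8 was below 0 in sWAT, at 90.9 to 106 CPM in controls and 91.7 to 98.3 in knockouts. The ieWAT direction depends on single libraries. There 74 of 84 members were above 0, but 50, 29 and 80 without knockout 1, 2 and 3. Without control 1, 2 and 3 the numbers were 44, 73 and 79. The eWAT direction rests on labels that Fgf13 does not bear out, and 49 of 83 members were above 0 in its TPM values. The depots may share animals, which the labels do not say.

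Some complex IV isoforms are made chiefly in muscle or testis, and a few libraries held them together with markers of those tissues. Cox6a2, the heart and muscle form of subunit 6a, measured 2.97, 7.52 and 0.52 CPM in BAT controls and 0.06 and 42.9 in knockouts, in the same order over the 5 libraries as the muscle sum. In sWAT it was 4.12 and 6.35 in knockouts 2 and 3 and at most 0.56 elsewhere. Its BAT log2 change of 0.87, the highest of that depot, thus rests on knockout 2.

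The testis forms Cox6b2, Cox8c and Cox7b2 reached 14.5, 10.4 and 2.02 CPM in ieWAT control 3, where the sperm genes Prm1 and Tnp1 summed to 248.7 CPM. The other 5 ieWAT libraries held at most 7.37 CPM of that pair and at most 1.72 of Cox6b2. Cox6b2 had the lowest log2 change of ieWAT, at -0.75 (limma adjusted p = 1.000), from that 1 control library. BAT held 2.40 to 4.15 CPM of Cox6b2 in every library with Prm1 and Tnp1 at 0.

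**Figure D5:**
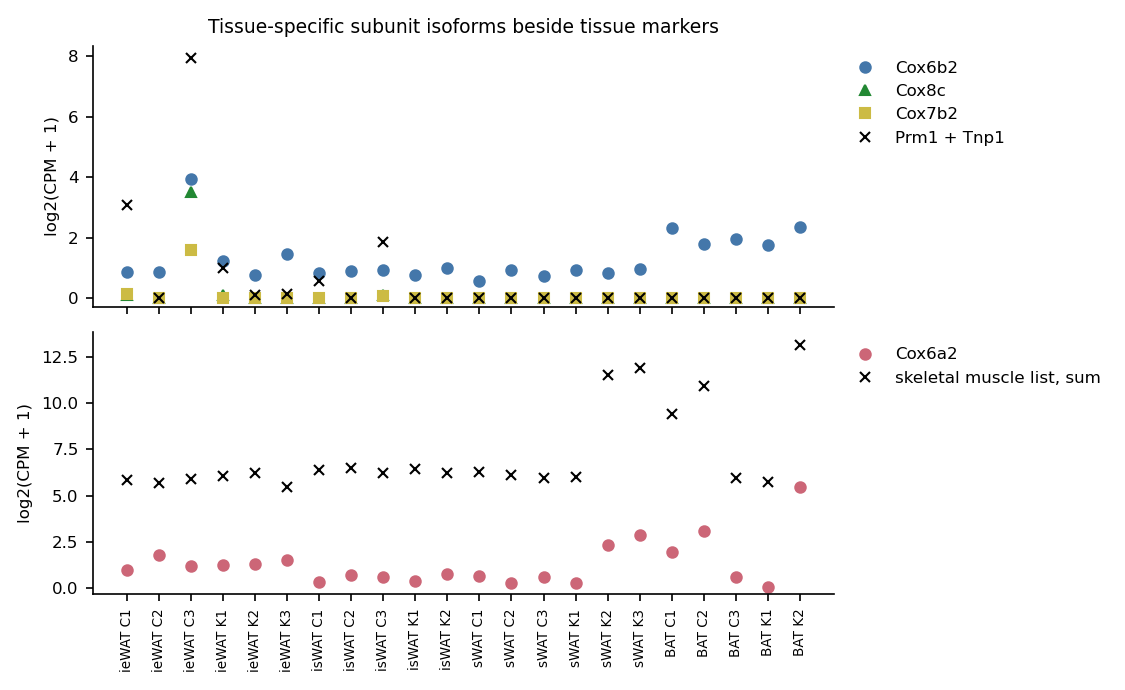
Log2(CPM + 1) in each library of the 4 CPM sets (C control, K knockout) of Cox6b2, Cox8c, Cox7b2 and the sum of Prm1 and Tnp1 (upper), and of Cox6a2 and the summed skeletal muscle list (lower). The upper values peak together in ieWAT control 3. The lower ones are highest in BAT knockout 2 and also high in sWAT knockouts 2 and 3 and in BAT controls 1 and 2.

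The 2 genes the rule leaves out are the heart and muscle forms of subunits 7a and 8, which brown fat also makes. Cox7a1 was at 460.1 to 566 CPM in BAT controls and 518 and 599 in knockouts, and Cox8b at 864 to 991 and 928 and 1064, both overlapping. In eWAT Cox7a1 was at 7.09 to 10.8 FPKM in controls and 13.1 to 23.5 in the libraries labelled knockout (limma adjusted p = 0.0565).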

How the data were processed

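Values were used as deposited. Per the submitters' processing notes the authors used Salmon, FastQC, MultiQC and DESeq2 1.38.3; build and annotation release were not given in any source used here. The deposited ieWAT, isWAT, sWAT and BAT tables are named FPKM but hold CPM: columns sum to 1000000 and at least 99.996% of values were whole multiples of 1 read (tolerance 0.01 reads). The deposited eWAT table holds FPKM. A further deposited table of the eWAT samples holds TPM and served as an alternative. Symbols came from GENCODE M21 by gene ID (at least 92.0% of IDs matched).

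Genes reaching a value of 1 in a number of libraries equal to the smaller group's size were fitted with limma 3.58.1 (R 4.3.3; lmFit, eBayes with trend and robust, two-sided) on log2(value + 1), by depot, with Benjamini-Hochberg adjustment over all genes. The fit was tested on simulated data. Alternatives were TMM, edgeR 4.0.16 and DESeq2 1.42.0 on recovered reads, filters, pseudocounts of 0.1 and 0.5, plain eBayes, array weights, a replicate block and leaving out libraries. Groups came from sample titles; depots were never pooled in a fit.

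Named by rule were up to 12 members passing per depot or, under 5, the 8 of smallest p; complex II; tissue isoforms and paralogues; extremes of level and change; members higher in all depots and apart in 3 or more; and up to 3 genes of a list with calls. One member that passed in eWAT is not reported here. Members, lists and rules were chosen with earlier results of these data known.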

Additional observations from a re-analysis of the deposited data

Results flagged for a closer look

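Cox4i2 had every library labelled knockout above every control in eWAT (log2 change 0.76) and every knockout library below every control in sWAT (-0.29). Ndufa4l2 had every library labelled knockout above every control in eWAT (0.45) and both knockout libraries below every control in BAT (-0.36). These pairs of opposite order caused the listing; the differences between depots were not tested, and the eWAT labels are not borne out by Fgf13.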

How the results depend on the processing

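Among named members that passed in eWAT, 6 reversed, all in the TPM table, an alternative added for single genes after seeing the data: Ndufv3 (-0.18), Ndufab1 (-0.63), Cox8a (-0.0311), Ndufs4 (-1.30), Uqcr11 (-0.56) and Ndufa7 (-1.86). Columns of that table correlated with one another (log2, across genes) at 0.689 to 0.964, against 0.979 to 0.994 in the FPKM table. In eWAT, 19 members passed and the number was 51 with array weights, 2 without a filter, 0 in the TPM table and 0 to 16 when 1 library was left out; the median was 0.61 in the TPM table, where that of all genes was 0.65. In BAT, 0 passed, but DESeq2 gave 18 and array weights 11 (10 higher, 1 lower). Over all genes, DESeq2 called 261 higher and 530 lower, and array weights 317 higher and 2563 lower. The members' median was 0.37 with DESeq2, 0.38 with edgeR and 0.38 with TMM. In isWAT DESeq2 gave 2 passing, beside 93 genes higher and 166 lower over all genes. The members' median ran from 0.031 to 0.313 when 1 library was left out. In sWAT 1 passed without knockout 1, beside 111 genes higher and 9 lower over all genes. The members' median was 0.11 with DESeq2 and edgeR and 0.0193 without knockouts 2 and 3. Deviations from the group mean correlated at -0.561 to 0.39 between control and knockout libraries with the same replicate number. Libraries with different numbers were not compared, so whether the replicate numbers pair the samples was not settled. With the number as a replicate block, 0 members passed in eWAT, where 0 of all genes passed in either direction. The causes of these shifts were not tested, except that leaving out libraries leaves fewer samples. With 2 or 3 libraries a group, and eWAT depth unknown, changes of the size seen outside eWAT were not separable from the spread between libraries.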

Other observations

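The level of 4 members differed by over 1.5 times between the 2 subcutaneous control sets, whose tables were made separately. Atp5g2 was at 96.2 to 107 CPM in sWAT and 11.3 to 15.3 in isWAT, a ratio of 7.998, where the median ratio over 81 members was 1.04. Ndufb4, Ndufc2 and Atp5s had ratios of 1.95, 1.74 and 1.57. Of the sequence words of Atp5g2, 38.4% occur in other genes.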
